A study of Mus musculus with 6 samples.

Results

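The genes described here are 9 transcription factors that mark projection neurons of the cerebral cortex. Bcl11b, Tbr1 and Fezf2 mark the deep layers, Cux1, Cux2, Pou3f2 and Rorb the upper layers, and the bHLH factors Neurod2 and Neurod6 the projection neurons of both. They were chosen by name, each gene of the count table being matched through its Ensembl identifier, and all 9 were found among its 43346 genes. The RNA was that of mouse cortical cells taken at gestational day 15.5 and kept in primary culture, with either vehicle (DMSO) or 1 mM 10HDA (10-hydroxy-2-decenoic acid, a fatty acid of royal jelly). There were 3 libraries per treatment, and cultures 1, 3 and 4 each gave 1 library of each treatment. The labels give all cultures the strain Cyp19-EGFP, which carries a green fluorescent reporter of the aromatase gene, and the genotype SRY+, which marks male fetuses, whereas the methods written for this sequencing experiment name C57BL/6 embryos. The duration of treatment was not given in the sources used here, and the number of fetuses pooled into a culture was not either. No group without vehicle was included.

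Projection neurons of the cortex are excitatory neurons that send axons to other regions, and they are born in an inside-out order, the deep layers first and the upper layers later. Deep layer fate depends on a small network of factors. Fezf2 promotes the subcerebral identity of layer 5, in part through Bcl11b (also called Ctip2), while Tbr1 specifies the corticothalamic neurons of layer 6. Upper layer neurons, most of which project within the cortex, express Cux1, Cux2 and Pou3f2 (Brn2), and Rorb marks layer 4. Neurod2 and Neurod6 are bHLH factors that are switched on as neurons leave the cell cycle and act in their differentiation and in axon growth. Some of these genes are used elsewhere too, for example Bcl11b in striatal neurons and interneurons, and Cux2 in interneurons and progenitors.

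The libraries held from 9144736 to 13367194 counts. By these totals a count of 3 corresponded to 0.22 to 0.33 CPM (counts scaled to the size of the library). That limit covers counting error only. The CPM values of genes given below were scaled by TMM as well. Each of the 9 factors had between 483 and 4551 counts in every library and passed the filter of at least 10 CPM in at least 3 libraries, as did 10520 genes in all. General neuronal markers such as Tubb3 and Map2 were abundant, with a sum over 12 genes of 7933 to 10037 CPM per library, so that the labelled tissue carried the RNA of neurons. All 7 microglial markers were at or below 0.64 CPM, Tmem119 being at 0 in every library, and all 6 listed endothelial and mural markers were at or below 1.27 CPM. Pdgfrb, listed with the meningeal markers instead, was at 15.2 to 16.1 CPM with vehicle and 6.17 to 9.66 CPM with 10HDA. The cultures were not purified, and in bulk RNA fewer cells of a type cannot be told apart from less RNA per cell.

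The expression of the 9 factors per length of transcript was compared first, as RPKM (CPM divided by the length of the gene model in kilobases). Neurod6 was the most abundant, with 143.9, 127.3 and 179.5 RPKM in the vehicle libraries of cultures 1, 3 and 4 and with 128.4, 110.3 and 168.6 RPKM in the 10HDA libraries. Neurod2 came next, between 63.4 and 77.5 RPKM, and both bHLH factors stood above every layer factor in all 6 libraries. The deep layer factors followed. Tbr1 lay between 26.7 and 37.2 RPKM, Fezf2 between 25.4 and 36.2, and Bcl11b between 22.6 and 28.0. The upper layer factors were lower, all under 13 RPKM. Cux2 lay between 9.91 and 12.6 RPKM, Pou3f2 between 8.0 and 11.6, Cux1 between 6.92 and 8.35, and Rorb between 3.83 and 5.17. The order of the group means was the same with vehicle and with 10HDA. Neighbours whose ranges over the 6 libraries overlapped were Tbr1 and Fezf2, Fezf2 and Bcl11b, Cux2 and Pou3f2, and Pou3f2 and Cux1, so that these neighbours did not differ beyond the spread over all libraries. Within each library, though, Bcl11b lay below Fezf2 and Cux1 below Pou3f2 in 6 of 6, Pou3f2 below Cux2 in 5 and Fezf2 below Tbr1 in 4. The level of Cux1 depends on a gene model of 20024 bases, the longest of the 9, which joins the exons of all its isoforms. Fezf2 has 2304 bases in the model used here and 3047 in GENCODE M21, and Cux2 has 8015 and 10082. The order of Fezf2 and Bcl11b, and of Cux2 and Pou3f2, therefore depends on the gene model.

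**Figure D1:**
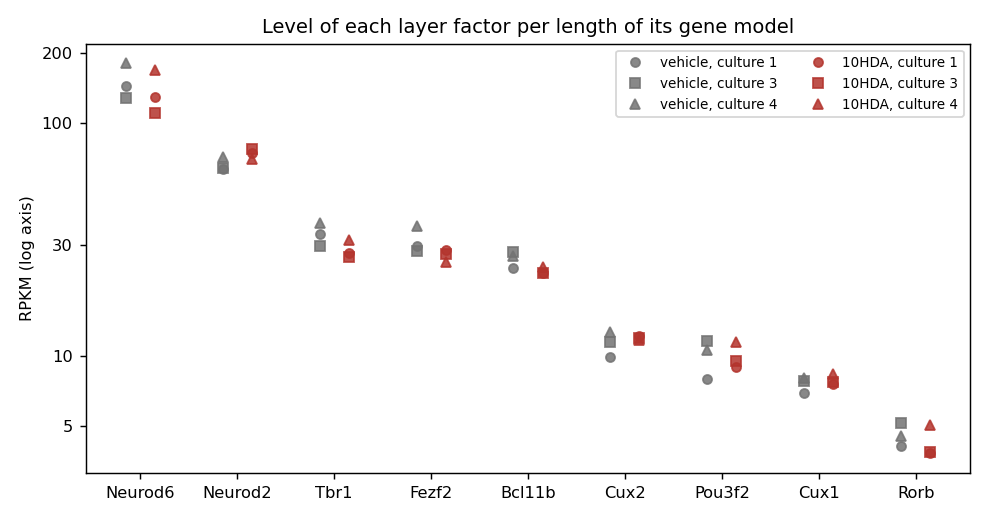
Level of the 9 layer factors in RPKM on a log axis, in order of their mean, with 1 point per library (grey vehicle, red 10HDA, the shape giving the culture). Neurod6 lay highest at 110.3 to 179.5 RPKM and Rorb lowest at 3.83 to 5.17 RPKM, and the deep layer factors lay above the upper layer factors in every library.

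The comparison of 10HDA with vehicle asked whether the factors that distinguish deep from upper layer neurons changed with treatment. None of the 9 factors passed an adjusted p of 0.1 in edgeR's quasi-likelihood test, where 0.627% of the 10520 tested genes did. None did with culture as a block either, where 8.98% of tested genes were called. The smallest adjusted p of the 9 was 0.52 without the block and 0.16 with it, both for Tbr1. At an unadjusted p under 0.05 there were 0 of the 9 without the block (10.1% of tested genes) and 1 with it, Tbr1 (20.0% of tested genes). The vehicle and 10HDA libraries overlapped in all 9 factors, whereas they did not overlap in 13.4% of tested genes. The median log2 fold change was -0.12 over the 9 factors and -0.0095 over all tested genes. It was -0.21 for the deep layer factors, 0.019 for the upper layer factors and 0.0076 for the bHLH pair.

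**Figure D2:**
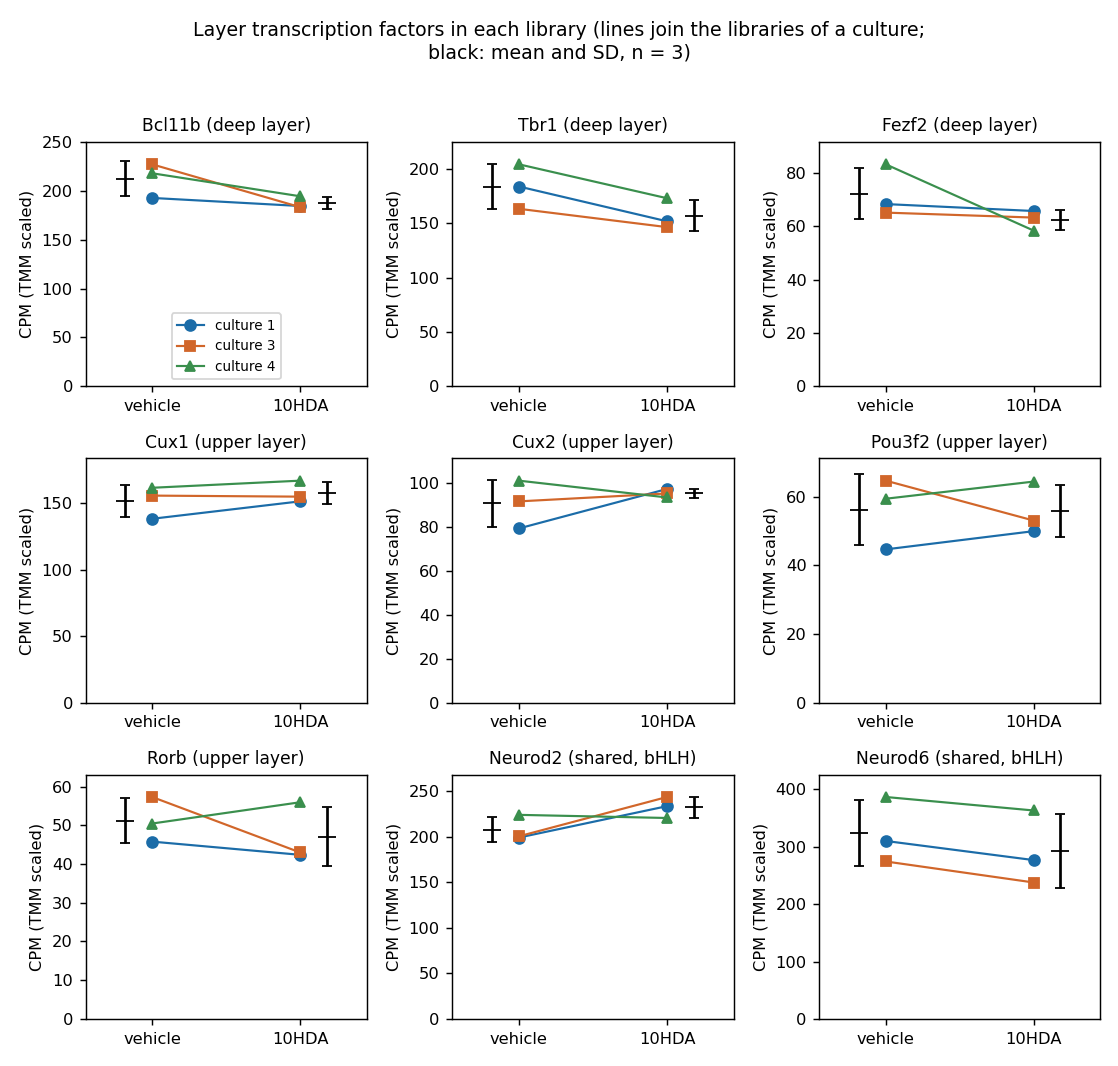
Expression of each layer factor in CPM, from 0, in the vehicle and 10HDA libraries. Lines join the libraries of a culture, and the black marks give the mean and SD of 3 libraries. The lines of Bcl11b, Tbr1, Fezf2 and Neurod6 slope down in all 3 cultures, and the ranges of the groups overlap in every panel.

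The deep layer factors were lower with 10HDA in each culture, by amounts that the test did not separate from the spread. Bcl11b (ENSMUSG00000048251.11, chromosome 12, 107910403 to 108003602, minus strand, GRCm38) encodes a zinc finger factor that directs the corticospinal axons of layer 5. It had 193.0, 227.4 and 218.2 CPM with vehicle in cultures 1, 3 and 4 and 184.7, 183.5 and 194.7 CPM with 10HDA. The highest 10HDA library lay just above the lowest vehicle library, so the groups overlapped by that pair alone. The log2 fold change was -0.18 (SE 0.097, 95% interval -0.40 to 0.031, adjusted p = 0.54), a ratio of 0.881.

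Tbr1 (ENSMUSG00000035033.11, chromosome 2, 61802930 to 61814114, plus strand) encodes a T-box factor of layer 6 and the subplate. It had 183.8, 163.3 and 204.2 CPM with vehicle and 151.8, 146.4 and 173.0 CPM with 10HDA. The difference within a culture was -0.28, -0.16 and -0.24 on the log2 scale in cultures 1, 3 and 4, while cultures 4 and 3 were the highest and the lowest under both treatments. Its log2 fold change was -0.23 (SE 0.11, 95% interval -0.47 to 0.018, adjusted p = 0.52). With culture as a block it was -0.22 (SE 0.091, 95% interval -0.41 to -0.037, unadjusted p = 0.021, adjusted p = 0.16). The blocked interval lay below 0, but the call did not survive the adjustment over all tested genes.

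Fezf2 (ENSMUSG00000021743.5, chromosome 14, 12342094 to 12348189, minus strand) encodes the zinc finger factor at the head of the subcerebral programme. It had 68.4, 65.2 and 83.3 CPM with vehicle and 65.8, 63.3 and 58.4 CPM with 10HDA. Culture 4 carried most of the difference, with a change of -0.51 on the log2 scale against -0.056 and -0.042 in cultures 1 and 3. The log2 fold change was -0.21 (SE 0.12, 95% interval -0.47 to 0.048, adjusted p = 0.56), and without the libraries of culture 4 it was -0.043. The summed CPM of the 3 deep layer factors ranged from 445 to 506 with vehicle and from 393 to 426 with 10HDA. These sums did not overlap, though the libraries of each factor alone did. The sums of the general neuronal markers did not overlap either, while those of the upper layer factors did. No share over sums of other genes was computed.

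The upper layer factors showed no common direction. Cux1 (ENSMUSG00000029705.13, chromosome 5, 136248135 to 136567490, minus strand) encodes a homeodomain factor that shapes the dendrites of upper layer neurons. It had 138.5, 155.9 and 161.8 CPM with vehicle and 151.6, 155.1 and 167.2 CPM with 10HDA. Its log2 fold change was 0.054 (SE 0.098, 95% interval -0.16 to 0.27, adjusted p = 0.86). Its exons share 1.97% of their bases with Gm16599 on the opposite strand. The library kit was strand-specific but the strand setting of the counting was not stated, so reads from that stretch cannot be assigned between them. The exons of the other 8 factors share no bases with another gene.

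Cux2 (ENSMUSG00000042589.14, chromosome 5, 121856366 to 122050102, minus strand), the paralog of Cux1 with a role in dendritic branching and spines, had 79.4, 91.7 and 101.2 CPM with vehicle and 97.4, 95.3 and 93.5 CPM with 10HDA. The 10HDA libraries lay within the range of the vehicle libraries, and the cultures moved apart, by 0.29 in culture 1, 0.055 in culture 3 and -0.11 in culture 4 on the log2 scale. The log2 fold change was 0.072 (SE 0.11, 95% interval -0.16 to 0.31, adjusted p = 0.83).

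Pou3f2 (ENSMUSG00000095139.2, chromosome 4, 22482780 to 22488366, minus strand) encodes a POU factor used by upper layer neurons and late progenitors. It had 44.7, 64.7 and 59.5 CPM with vehicle and 50.01, 53.1 and 64.5 CPM with 10HDA, a log2 fold change of -0.016 (SE 0.15, 95% interval -0.34 to 0.31, adjusted p = 0.98). Culture 3 was lower with 10HDA and the other two were higher. Rorb (ENSMUSG00000036192.11, chromosome 19, 18930605 to 19111196, minus strand) encodes the nuclear receptor of layer 4. It had 45.8, 57.3 and 50.5 CPM with vehicle and 42.4, 43.0 and 56.0 CPM with 10HDA, a log2 fold change of -0.12 (SE 0.14, 95% interval -0.42 to 0.17, adjusted p = 0.76). Its change was -0.41 in culture 3 and 0.15 in culture 4 on the log2 scale, so the cultures disagreed in sign. By mean CPM, Pou3f2 and Rorb are the least abundant of the 9, with 483 to 837 counts per library, and their intervals reach furthest from 0 among the upper layer factors.

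The bHLH factors had mean changes of opposite sign, neither of which passed the test, and in culture 4 both were lower. Neurod2 (ENSMUSG00000038255.6, chromosome 11, 98325415 to 98329648, minus strand), which acts in dendrite and synapse maturation, had 199.1, 200.5 and 224.0 CPM with vehicle and 233.6, 243.6 and 220.6 CPM with 10HDA. It was higher with 10HDA in cultures 1 and 3 and differed by -0.022 on the log2 scale in culture 4. Between treatments the log2 fold change was 0.16 (SE 0.095, 95% interval -0.047 to 0.37, adjusted p = 0.58).

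Neurod6 (ENSMUSG00000037984.8, chromosome 6, 55677822 to 55681263, minus strand), a marker of nearly all young cortical projection neurons, had 310.0, 274.3 and 386.6 CPM with vehicle and 276.6, 237.6 and 363.1 CPM with 10HDA. It was lower with 10HDA in each culture, by -0.16, -0.21 and -0.090 on the log2 scale, and culture 4 stood above the others under both treatments. The log2 fold change was -0.15 (SE 0.16, 95% interval -0.51 to 0.21, adjusted p = 0.76). With culture as a block the SE shrank to 0.091, and the adjusted p was 0.37. The log2 ratio of Neurod2 to Neurod6 within a library was higher with 10HDA by 0.39, 0.49 and 0.068 in cultures 1, 3 and 4, a mean of 0.32 ± 0.22 (SD, n = 3), and the libraries of the groups overlapped.

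**Figure D3:**
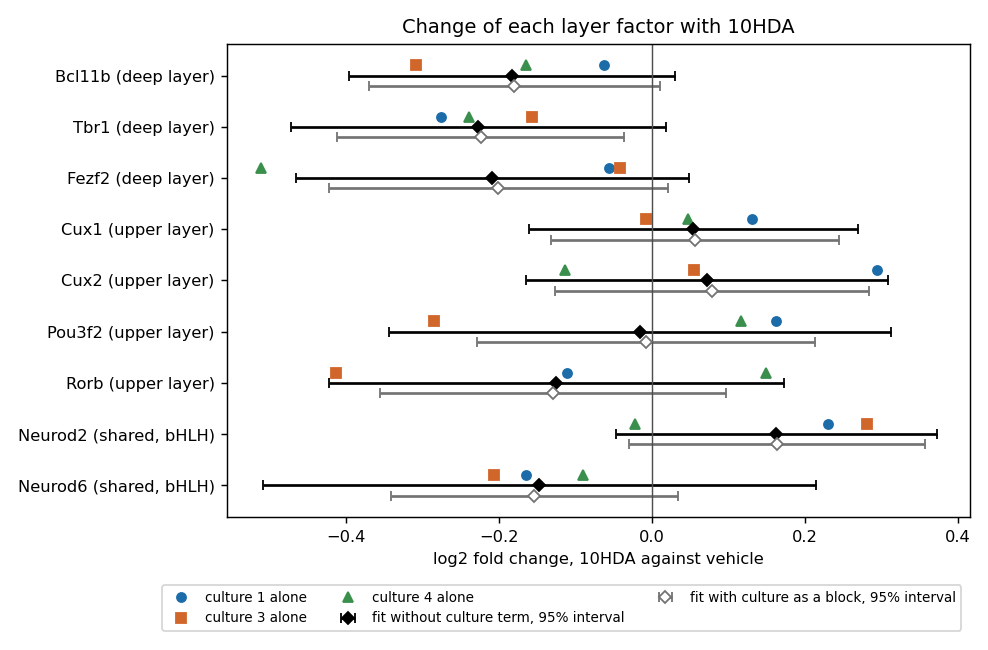
Change of each layer factor with 10HDA on the log2 scale. Black diamonds give the fit without and open diamonds the fit with a term for culture, with 95% intervals, and coloured points give each culture alone. Every interval spans 0 apart from that of Tbr1 with the culture term, at -0.41 to -0.037.

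In all, 4 of the 9 factors were lower with 10HDA in 3 of 3 cultures, the 3 deep layer factors and Neurod6, where 21.0% of tested genes were. None was higher in 3 of 3 cultures, where 18.6% of tested genes were. The cultures themselves were then compared, in the model with treatment and culture. Neurod6 was the only one of the 9 that differed among them (adjusted p = 0.0086, edgeR), where 9.93% of tested genes did. Relative to culture 1, its log2 difference was 0.36 in culture 4 and -0.20 in culture 3. Both differences were larger than its difference between treatments. The smallest adjusted p among the other 8 was 0.14, for Pou3f2, which was lowest in culture 1.

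The upper layer factors were set against the deep layer factors within each library, as the mean log2 CPM of the 4 upper minus that of the 3 deep. This difference does not depend on the scaling of the libraries. Its level mixes genes of different lengths, so only its change is read. It was -0.96, -0.65 and -0.89 with vehicle in cultures 1, 3 and 4 and -0.71, -0.65 and -0.53 with 10HDA, and the groups overlapped through culture 3. The change was 0.25, 0.0065 and 0.35, a mean of 0.20 ± 0.18 (SD, n = 3), equal to a 1.15-fold shift toward the upper layer factors. Culture 3 showed almost no shift, and without culture 4 the mean was 0.13. The mean of the deep layer factors differed by -0.13, -0.17 and -0.30 between treatments (mean -0.20 ± 0.091, SD). That of the upper layer factors differed by 0.12, -0.16 and 0.050 (mean 0.0019 ± 0.15, SD), so only the deep part had the same sign in the 3 cultures. No p is given for these means, since the genes were chosen with results of these data known. With any single factor left out, the mean shift stayed between 0.18 and 0.25.

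The shift was also read in single pairs, as the log2 ratio of the counts of an upper to a deep layer factor. The mean change was above 0 in 12 of 12 pairs, from 0.053 for Rorb to Bcl11b up to 0.30 for Cux2 to Tbr1, and 29 of the 36 values of single cultures were above 0. The pairs share genes and libraries and are not independent. In 7 pairs the ratio was higher with 10HDA in 3 of 3 cultures, among them all 6 pairs that hold Cux1 or Cux2. In 4 pairs the groups did not overlap. No share over ratios of other genes was computed, so neither count can be set against a background. The most even was Cux1 to Bcl11b, whose log2 ratio was -0.48, -0.54 and -0.43 with vehicle and -0.28, -0.24 and -0.22 with 10HDA, a change of 0.24 ± 0.058 (SD, n = 3). The log2 ratio of Cux2 to Fezf2 was 0.21, 0.49 and 0.28 with vehicle and 0.57, 0.59 and 0.68 with 10HDA. The other separated pairs were Cux2 to Bcl11b and Cux1 to Tbr1. All 7 values below 0 belonged to pairs with Pou3f2 or Rorb, and 5 of them to culture 3.

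**Figure D4:**
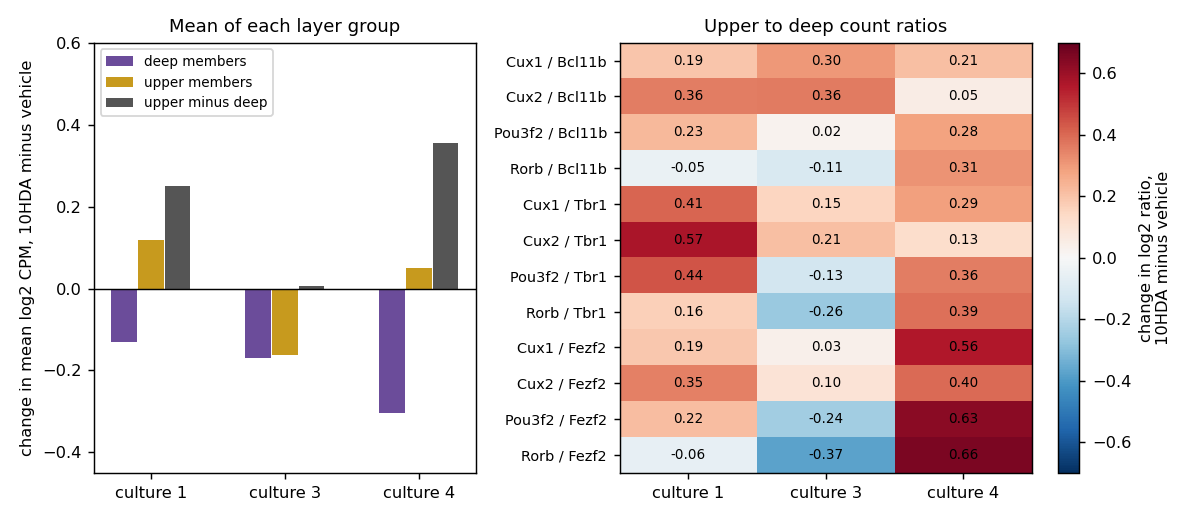
Left, change in mean log2 CPM from vehicle to 10HDA in each culture for the 3 deep layer factors, the 4 upper layer factors and their difference. Right, change in the log2 count ratio of each of the 12 upper to deep pairs by culture, red above and blue below 0. The deep bars lie below 0 in every culture, and the rows of Cux1 and Cux2 are above 0 throughout.

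Other genes of the same neurons were read from lists. Of 15 further deep layer and subplate genes, 12 were tested and 11 of these had a fold change below 0, with a median log2 fold change of -0.24. Among all 10520 tested genes 5486 were below 0, and among the 12 general neuronal markers 11 were as well. In this list 1 gene passed the threshold, lower with 10HDA (0.428% of tested genes were called lower), and 4 did with culture as a block (5.08% of tested genes). Ldb2, a cofactor of LIM domain proteins in layer 5, had 130.6, 124.0 and 160.4 CPM with vehicle and 89.2, 85.8 and 102.0 CPM with 10HDA. It fell by 0.58 on the log2 scale (SE 0.12, adjusted p = 0.086), with every 10HDA library below every vehicle library. That call was lost without vehicle library 3 or 4 or 10HDA library 1 or 3 (adjusted p = 0.17, 0.36, 0.50 and 0.34), and with scaling by library size alone (0.11). The others passed only with culture as a block. Tle4, a corepressor of layer 6 corticothalamic neurons, changed by -0.38 (adjusted p = 0.024 with the block, 0.30 without). Syt6, a synaptotagmin of layer 6, changed by -0.47 (0.037 and 0.26), and Hs3st4, a heparan sulfate sulfotransferase of layer 6, by -0.37 (0.069 and 0.42). Their blocked calls were lost without culture 4 (adjusted p = 0.27, 0.28 and 0.20), and that of Hs3st4 also without culture 1 or 3 (both 0.19). The groups did not overlap in these 4 of the 12 tested genes, where they did not in 13.4% of all tested genes. The 4 were named for their p in the same libraries, so the separation adds no further evidence. Sox5 and Etv1, both known in deep layers, had adjusted p of 0.56 and 0.64. Crym was the single gene with a positive value, 0.19 (adjusted p = 0.71).

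Of 12 further upper layer genes 11 were tested, and the median log2 fold change was -0.034. A fold change below 0 was found in 8 of them, and in 5486 of all 10520 tested genes. Dkk3, a secreted protein of the Dickkopf family, fell by 0.74 on the log2 scale (SE 0.12, adjusted p = 0.043), from 25.3, 22.5 and 24.9 CPM to 15, 13.9 and 14.8 CPM. It was the 1 gene of this list called, where 0.428% of tested genes were called lower. Its call was lost without vehicle library 3 or 4 or 10HDA library 1 or 3 (adjusted p = 0.14, 0.23, 0.30 and 0.17). With culture as a block 3 genes were called, all lower, beside 5.08% of tested genes. They were Dkk3, the netrin receptor Unc5d at -0.53 (adjusted p = 0.0069, 0.24 without the block) and the LIM factor Lmo4 at -0.36 (0.024, 0.45 without). The blocked call of Lmo4 was lost without culture 1 or 4 (adjusted p = 0.18 and 0.20). Of the other transcription factors in this list, Lhx2, a LIM homeodomain factor, changed by -0.032 (adjusted p = 0.95), and the POU factors Pou3f3 and Pou3f1 by 0.12 and 0.075 (0.73 and 0.80). The median of the deep layer list was thus further below 0 than that of the upper layer list, as among the 9 factors. The difference between the lists was not tested, and the list of general neuronal markers had a median of -0.24 as well.

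Of 16 genes shared by projection neurons, all were tested and none was called (median 0.014). With culture as a block 3 were, 2 of them lower (5.08% of tested genes). The vesicular glutamate transporter Slc17a7 was lower at -0.42 (adjusted p = 0.013, 0.18 without the block), as was Mef2c, a factor of synapse development, at -0.29 (0.074, 0.53 without). Sox4, a factor of newborn neurons, was higher at 0.30 (0.067, 0.54 without), where 3.91% of tested genes were called higher. Without culture 4 none of the 3 was called (adjusted p = 0.32, 0.42 and 0.30), nor was Mef2c without culture 3 (0.32) or Sox4 without culture 1 (0.27). The bHLH partner Bhlhe22 and the zinc finger Bcl11a lay at -0.093 and 0.0081. Of 11 paralogs of the 9 factors, 6 passed the filter and none was called in either fit. The closest were Rora at -0.21 (adjusted p = 0.65), Pou3f4 at -0.20 (0.67) and Pou3f3, given above. Eomes, the T-box relative of Tbr1 that marks intermediate progenitors, was at most 3.33 CPM in any library, and Fezf1, Neurod4 and Tbx21 were at most 0.34 CPM.

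**Figure D5:**
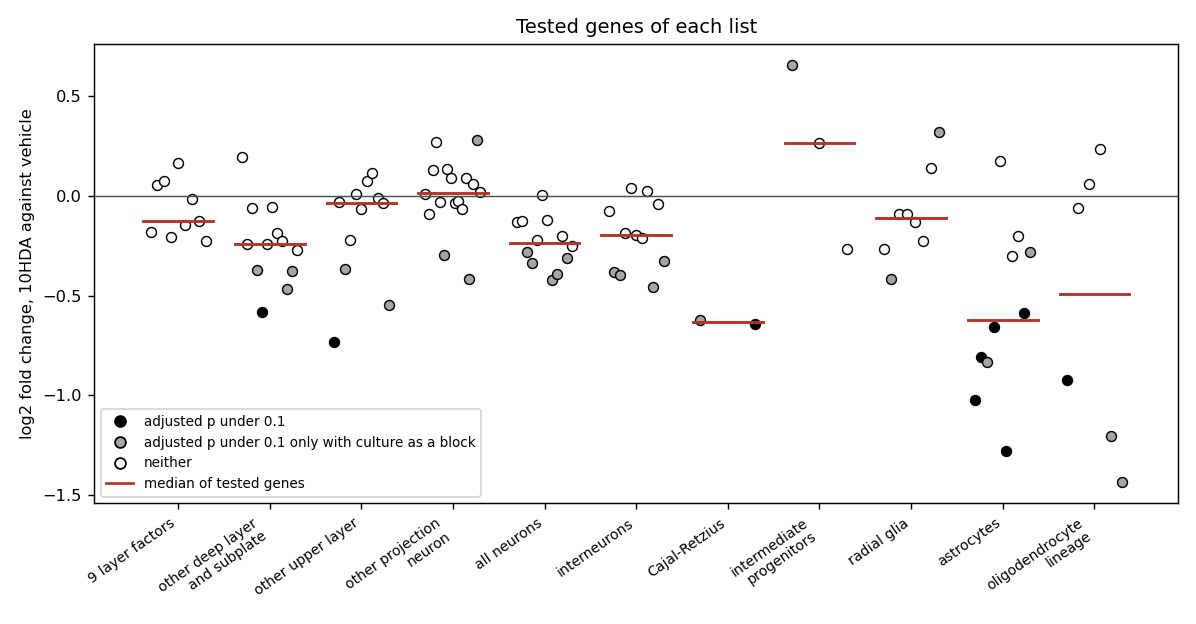
Log2 fold change of each tested gene in the 9 layer factors, 3 lists of related genes and 7 lists of cell markers. Black points passed an adjusted p of 0.1, grey points passed only with culture as a block, and red lines are medians. None of the 9 layer factors is filled, and the astrocyte list has the most black points, 5.

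Markers of other cells, and of neurons at large, were read in the same way. Over all tested genes 0.428% were called lower without and 5.08% with culture as a block, the shares to set beside the counts that follow. Of 12 astrocyte markers 10 were tested, and 5 were called lower (7 with culture as a block). Their summed level was 1212 to 1496 CPM with vehicle and 897 to 1085 CPM with 10HDA. Gfap alone was at 84.6, 65.4 and 103.3 CPM against 24.1, 38.5 and 41.8 CPM. The general neuronal list had a median log2 fold change of -0.24, beside -0.21 for the deep layer factors. None of its 12 genes was called (5 lower with the block), and its sum was 9499 to 10037 CPM with vehicle and 7933 to 8950 CPM with 10HDA. Of the Cajal-Retzius markers Reln and Calb2 were tested and Reln was called lower (-0.64, adjusted p = 0.043), while the defining Trp73, Lhx5 and Lhx1 were at most 4.25 CPM in every library. Interneuron markers, 11 of 12 tested, had a median of -0.20 with none called (4 lower with the block) and a sum of 612 to 756 CPM with vehicle and 519 to 703 CPM with 10HDA. Of the striatal markers, relevant to Bcl11b, 4 of 12 were tested and none was called. The sum over the 12 was 389 to 431 CPM with vehicle and 352 to 396 CPM with 10HDA. Most of it came from Meis2 (209 to 250 CPM over all libraries) and Foxp1 (81.6 to 119 CPM), while Drd1 and Drd2 were at most 4.65 CPM. Of the progenitor markers none was called without the block. With it, 1 of 3 tested for intermediate progenitors was called higher (Btg2), and of 8 tested for radial glia 1 was called higher (Vim) and 1 lower (Fabp7), beside 3.91% higher and 5.08% lower over all tested genes. Of 8 oligodendrocyte lineage markers 6 were tested, 1 was called lower (3 with the block) and the sum was 340 to 435 CPM with vehicle and 253 to 367 CPM with 10HDA. Of 5 meningeal markers only Pdgfrb was tested, and it was called lower. The part of any of these cells in the values of the layer factors was not tested.

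The promoters of the 9 factors, from 250 bases before to 50 bases after the RefSeq start (GRCm38.p6, 11 starts), were searched on both strands for short motifs of the factor families named above. CAGATG, an E-box that bHLH factors bind, was found in a Neurod2 and a Cux2 promoter and in 17.2% of 32851 promoters. AGGTGT, a core of T-box elements, was found in the Neurod6 promoter and in 13.7% of promoters. ATCGAT, a CUX motif, was found in a Cux2 promoter, its first base 7 bases after the first base of the E-box, and in 0.925% of promoters. CAGCTG (16.3%), the octamer ATGCAAAT (1.74%) and AGGTCA, a core bound by ROR and other nuclear receptors (16.3%), were found in none. A match describes the letters and is not a measured binding site. For the bHLH pair, 100 bases around the match in each are shown as examples, since their windows hold no exon, 5′ to 3′ on the minus strand, with the match in capitals. The first lies at chr11:98329714-98329813 (-168 to -69 from the start) and the second at chr6:55681264-55681363 (-100 to -1).
Neurod2: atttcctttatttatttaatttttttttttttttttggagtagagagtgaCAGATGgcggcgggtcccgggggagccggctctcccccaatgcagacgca
Neurod6: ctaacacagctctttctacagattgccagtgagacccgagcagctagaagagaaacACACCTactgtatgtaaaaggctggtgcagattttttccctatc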

How the data were processed

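RNA of 6 libraries from 3 primary cortical cultures was compared. Per the methods, the authors aligned untrimmed 50-base single-end reads to mm10 with Subjunc (Subread 1.4.4) and assigned them to Gencode genes with featureCounts. Raw counts were deposited, with no normalization or filter by the authors. The number of further sample columns was 0. Symbols came from GENCODE M21 (GRCm38) tables, which matched 98.0% of identifiers, and RPKM used the gene lengths of the count table.

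Genes reaching 10 CPM in 3 or more libraries were scaled by TMM and tested with edgeR 4.0.16 (glmQLFit and glmQLFTest, R 4.3.3), with Benjamini-Hochberg adjustment over 10520 genes at 0.1. The fit without a culture term is the one given unless a block is named. The procedure was tested on simulated data. The labels give each culture 1 library of each treatment, so culture pairs them. Across genes, the deviations from the treatment means correlated at 0.37, 0.24 and 0.62 within cultures and at -0.45 to 0.18 between them. The deviations cancel within a treatment, so positive values within cultures lower those between them by construction. Mean log2 CPM used a prior count of 2. No exact test was run on single values, since 3 libraries against 3 cannot reach p = 0.05.

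All 9 factors were named. From each list of related genes, those past 0.1 in either fit and the 3 with the smallest p were named, except for a result that is not reported here. Sox5, Etv1, Crym, Lhx2, Pou3f1, Bhlhe22, Bcl11a and the marker genes were named for their roles or after their values were seen. The members and lists were chosen with earlier results of these data known. Labels name the cultures separately, and p-values measure the spread between these libraries. Alternatives were other scalings (DESeq2 1.42.0 size factors, upper quartile, library size), other tests (DESeq2, edgeR likelihood ratio, limma-voom with limma 3.58.1), filters, the threshold, culture as a block, and libraries or cultures left out. Protein sequences were not used here.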

Additional observations from a re-analysis of the deposited data

How the results depend on the processing

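None of the 9 factors was called under any of the 24 alternatives. Of their 216 log2 fold changes under these, 201 kept their sign and 15 did not, all of values whose interval spanned 0. Pou3f2 (-0.016) became 0.013 with upper quartile scaling, 0.060 with library size alone, 0.069 and 0.0050 with the replicate block and library size alone or the lower filter, and 0.14 with the block and without culture 3. With the block, Cux2 became -0.0082 without culture 1 and Rorb 0.022 without culture 3. With libraries or cultures left out of the fit without the block, Pou3f2 ranged from -0.13 to 0.13, Cux2 from -0.010 to 0.18, Rorb from -0.27 to 0.029 and Neurod6 from -0.33 to 0.017. The positive value of Neurod6 came without vehicle library 4. The deep layer factors stayed below 0 throughout.

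Of the 39 tested related genes (paralogs aside), 2 were called, and 1 with library size alone or a threshold of 0.05. DESeq2's Wald test and edgeR's likelihood ratio test each called 4. With no filter 5 were called, and with no filter or the lower filter 43 related genes were tested. With culture as the replicate block 10 were called, and in that fit 9 with library size alone or with the lower filter, 8 without culture 1, 10 without culture 3 and 3 without culture 4 (over all genes 945, and 358 without culture 4). With libraries left out the count ranged from 0 to 3. The cause was not tested. Over all genes, 66 were called, 0 without 10HDA library 1 and 355 without 10HDA library 4, so counts with so few libraries depend on single ones. The widest interval among the 9 factors, that of Neurod6, ran from -0.51 to 0.21 on the log2 scale.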
